A study of Mus musculus with 11 samples.

Results

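Spp1 and Lpl expressing microglia were taken as the brain cells that held at least 5 UMIs of Spp1 and at least 1 UMI of Lpl, a UMI being 1 counted mRNA molecule. By this rule 79 of 6598 brain cells were members, 2 of 3097 in the WT library and 77 of 3501 in the Zeb2KO library, out of 51712 cells in the 11 libraries of the series. A filter on depth, gene number and mitochondrial share kept 70 of the 77 Zeb2KO members and both WT members. Of the 7 that were removed, 3 stood out in UMIs, 3 in gene number and 4 in mitochondrial share, with some failing more than 1 limit. Cells of the same library with 0 UMIs of both genes, 2345 in WT and 2142 in Zeb2KO, served as comparison cells.

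The study measured single-cell RNA-seq of tissue macs that lack Zeb2, a zinc finger transcription factor, against littermates that keep it. The WT microglia came from Zeb2fl/fl mice, which carry LoxP sites at Zeb2 and no CRE, and the Zeb2KO microglia from Fcgr1-crexZeb2fl/fl mice, in which the promoter of the CD64 gene drives CRE in macs and, as the study found, in some other immune cells as well. The strain background was C57Bl/6, the study used males and females, and the usual age was 6 to 8 weeks. In the Zeb2KO brain library Xist, an RNA of female cells, was seen in 70 of 70 filtered members and 98.8% (98.2 to 99.2%) of comparison cells. Cells were sorted as live CD45int F4/80+ CD64+ brain cells, and each genotype is 1 library for which the labels give no number of animals. With 1 library per genotype no difference was tested, and every interval of a level or a share below is an exact 95% interval for counting error alone, the bounds of a log2 ratio combine those of its levels, and the limit given for a count of 0 is that of 3 counts. Members were chosen by the UMIs of the same cells, so their levels beside those of other cells are a description. Zeb2 itself does not check the deletion here, since counting reads the 3′ end of the mRNA: it stood at 1879 CPM (summed UMIs scaled to a total of 1000000) in the Zeb2KO members, 1741 in the Zeb2KO comparison cells and 477 in the WT comparison cells.

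Microglia are the resident macs of the brain parenchyma, and in the steady state they express the purinergic receptor P2ry12, the membrane protein Tmem119 and the fractalkine receptor Cx3cr1. Around amyloid, in demyelination, in ageing and in early postnatal white matter some of them enter a state often called disease-associated microglia (DAM), in which these genes fall and Apoe, Axl, Cst7, Itgax, Spp1 and Lpl rise. Spp1 encodes osteopontin, a secreted phosphoprotein that binds integrins and CD44. Lpl encodes lipoprotein lipase, which releases fatty acids from the triglycerides of lipoproteins. In GRCm38 (GENCODE M21) Spp1 lies at chr5:104435118-104441050 and Lpl at chr8:68880491-68907448, both protein coding and on the plus strand.

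Promoters are shown for Spp1, whose UMIs set the rule (the upstream one of its starts in the table), and for Itgax, the one of the given markers whose window held searched letters, as the 250 bases before the start in RefSeq (GRCm38.p6, plus strand). The Spp1 window is chr5:104434861-104435110 and the Itgax window chr7:128129300-128129549. Letters in capitals mark TGAGTCA, a site of AP-1 factors, and both windows are in lower case elsewhere.
Spp1: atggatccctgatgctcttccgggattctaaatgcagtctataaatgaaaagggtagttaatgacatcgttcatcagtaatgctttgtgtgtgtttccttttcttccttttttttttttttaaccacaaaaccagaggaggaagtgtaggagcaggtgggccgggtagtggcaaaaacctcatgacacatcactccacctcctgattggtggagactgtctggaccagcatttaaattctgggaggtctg
Itgax: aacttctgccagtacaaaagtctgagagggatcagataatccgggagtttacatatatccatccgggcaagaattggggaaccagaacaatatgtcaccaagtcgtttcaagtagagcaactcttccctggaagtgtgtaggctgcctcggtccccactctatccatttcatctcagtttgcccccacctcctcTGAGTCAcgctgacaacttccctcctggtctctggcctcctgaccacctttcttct
Itgax thus held the letters 56 bases before its start, and neither these letters nor the E-box CACGTG was found in the Spp1 window. Of the 129 genes that were at least 2-fold higher in Zeb2KO members, 100 had a promoter in the table. TGACTCA or TGAGTCA, which are each other's reverse complement, stood in 7 of these 100 (7%), beside 4.28% of the promoters of all genes considered and 5.16% of all 27025 genes of the table. CACGTG, which reads the same on both strands, stood in 9 of 100 (9%), beside 12.2% and 6.86%. The exact intervals were 2.86 to 13.9% for the former and 4.2 to 16.4% for the latter, and a match is a description of letters only.

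Members were found almost wholly in the Zeb2KO library. They made up 2.16% (1.69 to 2.72%) of 3243 filtered Zeb2KO microglia and 0.0707% (0.00856 to 0.255%) of 2830 filtered WT microglia. Zeb2KO cells were deeper, so each cell was also thinned to 1500 UMIs, which left out no cell of either library. On thinned cells the rule found 17 Zeb2KO cells, 0.524% (0.306 to 0.838%), and 1 WT cell, 0.0353% (0.000895 to 0.197%). The intervals of the 2 libraries did not overlap on either scale. The WT and Zeb2KO libraries shared 14 barcodes, and none of these was a member.

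The 2 genes of the rule went in opposite directions between the libraries. Spp1 was seen in 30.4% (28.8 to 32%) of Zeb2KO microglia and 1.73% (1.28 to 2.28%) of WT microglia, and summed to 499 and 11.2 CPM. Lpl was seen in 7.8% (6.9 to 8.78%) of Zeb2KO microglia and 15.8% (14.5 to 17.2%) of WT microglia, and summed to 33.7 and 67 CPM. Cells with Lpl and fewer than 5 Spp1 UMIs were therefore common in WT, where there were 446, against 183 in Zeb2KO. Thinned to 1500 UMIs, Lpl was seen in 3.45% of Zeb2KO and 7.56% of WT cells, in the same order as before thinning.

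**Figure D1:**
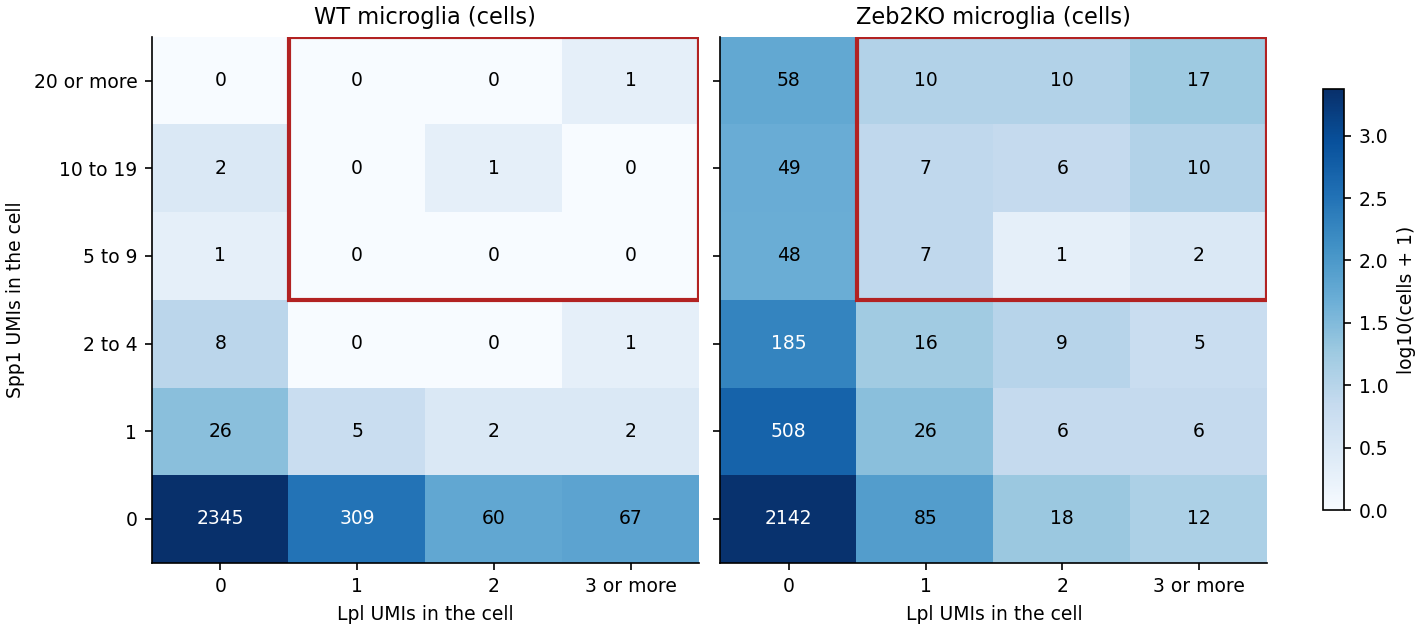
Number of filtered cells by their Spp1 UMIs (vertical axis) and Lpl UMIs (horizontal axis) in the WT (left) and Zeb2KO (right) brain libraries; the red frame marks the members and the shade is log10 of the number of cells plus 1. The frame holds 2 WT and 70 Zeb2KO cells, while WT has 309 cells with 1 Lpl UMI and no Spp1 against 85 in Zeb2KO.

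Spp1 and Lpl went together within the Zeb2KO library. Of 225 Zeb2KO cells with 5 or more Spp1 UMIs, 70 (31.1%, 25.1 to 37.6%) held an Lpl UMI, against 68 of 761 cells with 1 to 4 Spp1 UMIs (8.94%, 7.01 to 11.2%) and 115 of 2257 cells with none (5.1%, 4.22 to 6.08%). On thinned cells these shares were 16.7% (10 to 25.3%), 6.38% (4.17 to 9.27%) and 2.55% (1.99 to 3.21%), in the same order. In WT only 5 cells held 5 or more Spp1 UMIs, so that 2 with Lpl gave a share that could lie between 5.27 and 85.3%.

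A Spp1 UMI was found in cells of every Zeb2KO cluster, in 20.9 to 71% of them. In a single cell a low Spp1 count cannot be told apart from free RNA, and the part of free RNA in these counts was not tested. Neither brain library had a cluster of another cell type that could give a background. One Zeb2KO cluster of 87 cells, with no cell at 5 or more Spp1 UMIs, had a Spp1 UMI in 27.6% of its cells at a median depth of 5244 UMIs and a summed level of 56.8 CPM. At that limit 4 Zeb2KO cells with Lpl held exactly 5 Spp1 UMIs and 10 held 4, and of the 70 members 24 held a single Lpl UMI while 155 other cells with 5 or more Spp1 UMIs held none.

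Among Zeb2KO members Spp1 ranged from 5 to 424 UMIs per cell with a median of 21.5, and Lpl from 1 to 34 with a median of 2. The cell with most Spp1 held 11.8% of the members' 3593 Spp1 UMIs, so that no single cell carried the summed level of 7176 CPM. Members held a median of 6596 UMIs and 2132 genes, against 4776.5 UMIs and 1845.5 genes in comparison cells, and a mitochondrial share of 1.43 against 1.61%. A cell with more UMIs passes a UMI minimum more easily. With comparison cells weighted to the depth of the members, the log2 ratios given below moved from 4.17 to 3.25 for Plaur, from 2.43 to 1.82 for Itgax, from 1.83 to 1.38 for Cst7 and from -1.41 to -1.25 for P2ry12.

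The members were microglia by their markers. All 9 microglia markers were measured, at 13914 CPM in sum against 20168 in comparison cells, and none was at 0. Of the 8 markers of border-associated macs 7 were at 0, Pf4, Cd163, Lyve1 and Ms4a7 among them, and the list summed to 2 UMIs (3.99 against 11.5 CPM in comparison cells). Monocyte markers (5 UMIs, Ly6c2 and Chil3 at 0) and B cell markers (7 UMIs, Cd79a and Ebf1 at 0) also lay below comparison cells, at 9.99 against 42.9 CPM and 14 against 25.1 CPM. Neutrophil markers (2 UMIs, S100a9 and Ly6g at 0), T or NK cell markers (1 UMI, Cd3e and Cd3d at 0) and dendritic cell markers (8 UMIs, Flt3 and Clec9a at 0) lay above them on these few UMIs, at 3.99 against 0.285 CPM, 2 against 0.285 CPM and 16 against 13.6 CPM. Neuron markers were at 0 throughout, and oligodendrocyte, astrocyte, choroid plexus and erythroid lists lay at 73.9, 57.9, 57.9 and 32 CPM, below the 95.4, 64.9, 63 and 39.7 CPM of comparison cells. The endothelial list was also higher, at 67.9 against 22.3 CPM, of which Flt1 made up 29 of 34 UMIs while Cldn5, Ly6c1 and Rgs5 were at 0.

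Axl, Cst7 and Itgax, the markers given for this state, were each higher in Zeb2KO members than in comparison cells. Axl encodes a TAM receptor tyrosine kinase that takes part in the uptake of apoptotic cells, and its level was 148 CPM (116 to 186) against 15.6 (13.3 to 18.1), a log2 ratio of 3.17 (2.76 to 3.55). Itgax encodes the integrin chain CD11c and stood at 140 CPM (109 to 177) against 25.1 (22.2 to 28.4), a log2 ratio of 2.43. Cst7 encodes cystatin F, an inhibitor of lysosomal cathepsins, and stood at 473 CPM (415 to 538) against 132 (125 to 139), a log2 ratio of 1.83. These levels in the WT comparison cells were 6.12, 3.51 and 9.32 CPM.

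The 3 markers were uneven from cell to cell. Axl was seen in 35 of 70 members with 0 to 6 UMIs per cell, Itgax in 38 with 0 to 7, and Cst7 in 45 with 0 to 23. All 3 were seen in 20 members (28.6%, 18.4 to 40.6%) and none of them in 13 (18.6%), against 19 (0.887%) and 1298 (60.6%) of 2142 comparison cells. After thinning to 1500 UMIs Axl was seen in 15.7% (8.11 to 26.4%) of members and 1.87% (1.34 to 2.53%) of comparison cells, Itgax in 12.9 and 3.27%, and Cst7 in 35.7 and 13.1%. All 3 together were then seen in 0 of 70 members and 1 of 2142 comparison cells. The difference of each single marker was thus seen at equal depth. Exactly 2 of the 3 were seen in 20% (11.4 to 31.3%) of thinned members and 0.84% (0.499 to 1.32%) of thinned comparison cells. In the 155 cells with 5 or more Spp1 UMIs and no Lpl this share was 11% (6.52 to 17%). All 3 together were seen in too few thinned cells to show whether they differed. A member that shows none of the 3 cannot be told apart from one in which they were missed.

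Over all genes, 2929 reached 50 CPM in the higher of the 2 groups with both rule genes set aside, along with genes of mitochondria, ribosomes, sex chromosomes, immunoglobulins and haemoglobin. Of these, 129 (4.4%) were at least 2-fold higher and 70 (2.39%) at least 2-fold lower in Zeb2KO members, and the median log2 ratio was -0.10. When each gene lost the member cell that held most of its UMIs, which by construction lowers the members' levels alone, 85 were higher and 133 lower. These counts apply the minimum of 50 CPM again, which 2864 genes then reached. Of the 129 higher genes, 98 kept a ratio of at least 2-fold without that cell, though not all of these still reached 50 CPM. A gene at 50 CPM rests on only 25 UMIs in the 70 members. One that reached 50 CPM in a single group could be counted as higher in that group only. Of the 129 higher genes 54 were seen in at least 35 members and 9 in 10 members or fewer, and in 7 a single cell held over 50% of the UMIs.

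The highest ratios belonged to genes of low level that few comparison cells held. Plaur, the urokinase receptor, stood at 95.9 CPM (70.7 to 127) against 4.37 (3.2 to 5.82), a log2 ratio of 4.17, and was seen in 20 of 70 members and 1.49% of comparison cells. Tnfrsf11b encodes osteoprotegerin, the soluble decoy receptor of RANKL, and stood at 93.9 CPM against 4.65 (log2 ratio 4.07, 17 members). Lilrb4a, an inhibitory immunoglobulin-like receptor with a near-identical neighbour, followed at 63.9 against 3.61 CPM (log2 ratio 3.82, 16 members). Flt1, a VEGF receptor, reached 57.9 against 4.08 CPM in 17 members, Rab7b, a GTPase of endosomes, 69.9 against 6.07 CPM in 15, and Gpr65, a proton-sensing receptor, 57.9 against 6.74 CPM in 11. After thinning they were seen in 4.29 to 11.4% of members, or 3 to 8 cells, and in 0.28 to 0.98% of comparison cells. These genes were picked by their ratio in the same cells and reached 50 CPM in the members alone. Their thinned shares are therefore a description and no separate support. None of these genes was seen in most members, and the subsets were of 11 to 20 cells each.

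Other genes of the highest ratios rested on very few cells. Lgals3, which encodes galectin-3, was seen in 8 members, 1 of which held 16 of its 28 UMIs, and its log2 ratio of 3.57 was 2.40 without that cell. Cxcl10, an interferon-induced chemokine, was seen in 7 members, and 1 of them held 166 of 224 UMIs. Its log2 ratio was 2.83 with that cell and 0.92 without it. The same cell, with 5 Spp1 UMIs and 1 Lpl UMI, held 343 of 427 UMIs of the chemokine Ccl12 and 60 of 118 UMIs of Ccl5. Cxcl2 rested on another cell, with 39 of 49 UMIs. Without its top cell the log2 ratio was -0.63 for Ccl12 and -0.23 for Cxcl2.

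**Figure D2:**
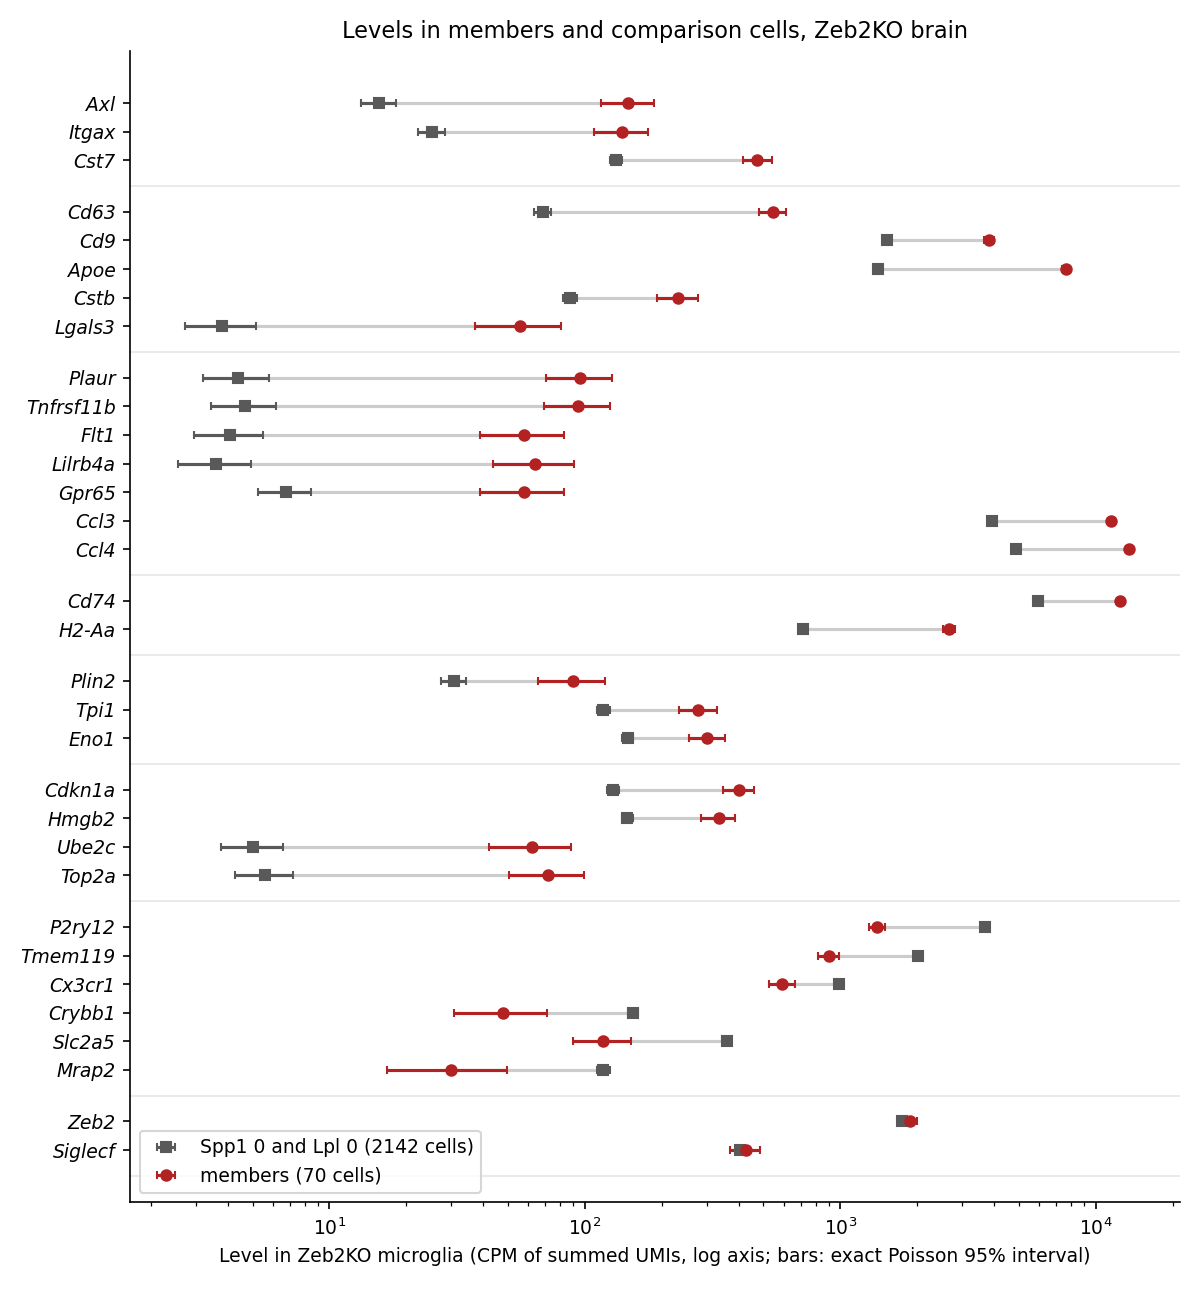
Level of named genes in the 70 Zeb2KO members (red circles) and the 2142 Zeb2KO comparison cells (grey squares), as CPM of summed UMIs on a log axis; bars are exact Poisson 95% intervals. Axl, Cd63 and Apoe lie to the right in the members and P2ry12, Tmem119 and Crybb1 to the left, while Zeb2 and Siglecf lie close together.

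Genes of the late DAM list, drawn up with these data known, which leaves out Spp1 and Lpl here, were higher in members as a group. Of 23 measured genes 19 reached 50 CPM, and the median log2 ratio was 1.32. Of these, 11 were at least 2-fold higher (beside 4.4% of all genes) and none at least 2-fold lower. The 11 include Axl, Itgax and Cst7, already given above as markers of this state. They also include Lgals3, of which 1 cell held 16 of 28 UMIs. Axl, Itgax and Lgals3 reached 50 CPM in the members alone, so they could not be counted as lower. Cd63, a tetraspanin of late endosomes and exosomes, stood at 543 CPM (481 to 612) against 68.2 (63.3 to 73.4), a log2 ratio of 2.97. It was seen in 48 members. The WT comparison cells held 500 CPM (486 to 514) of Cd63, close to the level of the Zeb2KO members. Cd9, another tetraspanin, was seen in every member with a median of 24.5 UMIs and stood at 3818 against 1528 CPM. Cd63 and Cd9 stood at 337 and 2603 CPM in the 155 cells with 5 or more Spp1 UMIs and no Lpl. Csf1, the ligand of the CSF1 receptor on which microglia depend, stood at 493 against 95.7 CPM (log2 ratio 2.35, 51 members), and Hif1a, the oxygen-regulated transcription factor, at 198 against 63.6 CPM.

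Of the 9 early DAM genes that reached 50 CPM, all had a ratio above 0 but only Apoe and Cstb passed 2-fold (beside 4.4% of all genes). The median log2 ratio of the 9 was 0.50, beside -0.10 over all genes. Apoe, the lipid-carrying apolipoprotein, was the more abundant: members held 0 to 349 UMIs with a median of 11, at 7611 CPM (7371 to 7857) against 1408 (1385 to 1431). Cstb, the cathepsin inhibitor stefin B, stood at 232 against 87.5 CPM, and at 228 CPM in the 155 cells with 5 or more Spp1 UMIs and no Lpl. Trem2, a lipid-sensing receptor of microglia, and its adaptor Tyrobp differed little, at 2652 against 2334 CPM and 3675 against 3348 CPM.

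Homeostatic genes were lower in members. Of 24 homeostatic genes that reached 50 CPM all 24 had a ratio below 0, and 6 were at least 2-fold lower (beside 2.39% of all genes). Their median log2 ratio was -0.74, beside -0.10 over all genes. P2ry12 was still seen in every member, with a median of 8 UMIs and at most 31, at 1390 CPM (1289 to 1497) against 3685 (3648 to 3722), a log2 ratio of -1.41. Tmem119 stood at 901 against 2017 CPM (log2 ratio -1.16) and was seen in 65 members. Cx3cr1 did not pass 2-fold, at 593 against 983 CPM (log2 ratio -0.73). Sall1, a transcription factor of microglial identity, stood at 47.9 against 117 CPM, Slc2a5, a fructose transporter, at 118 against 361 CPM, and Crybb1, a crystallin, at 47.9 against 154 CPM. Sall1 and Crybb1 reached 50 CPM in the comparison cells alone, so they could not be counted as higher. Slc2a5 and Crybb1 stood at 186 and 77 CPM in the 155 cells with 5 or more Spp1 UMIs and no Lpl. The lowest ratio of all was that of Mrap2, an accessory protein of melanocortin receptors, at 30 against 118 CPM (log2 ratio -1.94), a gene at 0.401 CPM in the WT comparison cells. Slc46a1, a folate transporter, and Rnpepl1, an aminopeptidase-like protein, were also among the 6 lowest, with 9 and 10 UMIs in the members.

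Among cytokines and chemokines 11 of 15 genes were at least 2-fold higher (beside 4.4% of all genes), with a median log2 ratio of 1.48. The chemokines Ccl4 and Ccl3 were the most abundant and were seen in all 70 members, at 13534 against 4852 CPM and 11426 against 3918 CPM. Their medians were 79.5 and 73 UMIs per member. Cxcl16, a scavenger receptor and chemokine, stood at 302 against 53.4 CPM and Ccl9 at 401 against 81.8 CPM. Il1b stood at 1266 against 494 CPM and Tnf at 1009 against 503 CPM. The 155 cells with 5 or more Spp1 UMIs and no Lpl held 9870, 8480, 1105 and 998 CPM of Ccl4, Ccl3, Il1b and Tnf. Il1b and Tnf were seen together in 24 members (34.3%, 23.3 to 46.6%) and 455 comparison cells (21.2%, 19.5 to 23%), or in 20% (11.4 to 31.3%) and 8.03% (6.91 to 9.26%) of thinned cells. The chemokines Ccl12 and Cxcl2 count among the 11 although each rested on 1 cell, as given above.

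Of 7 MHC class II genes that reached 50 CPM, which serve to present antigen to CD4 T cells, 4 were at least 2-fold higher (beside 4.4% of all genes), and 1 had a ratio below 0. The log2 ratio of Cd74 was 1.07, and 0.77 with comparison cells weighted to the depth of the members. H2-Aa was seen in 59 members and stood at 2660 CPM (2519 to 2807) against 713 (697 to 729). The invariant chain Cd74 was seen in every member and stood at 12402 against 5923 CPM. The 155 cells with 5 or more Spp1 UMIs and no Lpl held 2181 CPM of H2-Aa and 11015 CPM of Cd74. H2-Eb1 and H2-Ab1 stood at 1656 against 472 CPM and 2594 against 897 CPM. The class II level of the whole Zeb2KO library was above that of WT, where the comparison cells held 29.9 CPM of H2-Aa and 178 CPM of Cd74.

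Of 14 glycolysis genes 5 were at least 2-fold higher (beside 4.4% of all genes), and the list had a median log2 ratio of 0.77. Eno1 and Tpi1, both enzymes of the pathway, stood at 302 against 147 CPM and 278 against 118 CPM. Their log2 ratios of 1.03 and 1.23 were 0.88 and 0.99 with comparison cells weighted to the depth of the members. The 155 cells with 5 or more Spp1 UMIs and no Lpl held 190 CPM of Eno1 and 262 CPM of Tpi1. Slc16a3, which exports lactate, stood at 91.9 against 25.9 CPM, and Slc2a1, the glucose transporter GLUT1, at 91.9 against 42.6 CPM. Both reached 50 CPM in the members alone. Lysosome and phagosome genes had a median log2 ratio of 0.24, beside -0.10 over all genes. None of 26 passed 2-fold in either direction, where 4.4% of all genes were higher and 2.39% lower. Ctsd, the aspartic protease cathepsin D, stood at 9774 against 8335 CPM.

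Genes that act on lipids beside Lpl were mostly low. Of 38 measured genes of lipid uptake, storage and efflux only 9 reached 50 CPM and 10 had no UMI in the members, among them Cd36, Fabp4, Pparg and Nr1h3. Plin2, a coat protein of lipid droplets, was the only one past 2-fold (beside 4.4% of all genes) and reached 50 CPM in the members alone, at 89.9 CPM (65.6 to 120) against 30.7 (27.4 to 34.2), and was seen in 24 members. Abca1 and Abcg1, cholesterol exporters, stood at 45.9 against 35.9 CPM and 59.9 against 50.2 CPM. Of 14 genes of lipoprotein lipase maturation and regulation 9 had no UMI, including Gpihbp1, which anchors the enzyme at capillaries, and Angptl4, which inhibits it. Sel1l, which takes part in the maturation of the enzyme in the endoplasmic reticulum, was the only one to reach 50 CPM in either group, at 32 against 51.2 CPM (log2 ratio -0.66). Below that level, Furin, a protease that cleaves the enzyme, stood at 49.9 against 30.8 CPM, and Lmf1, needed for its folding, at 45.9 against 38.2 CPM.

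Of 18 receptors and proteases of osteopontin 3 reached 50 CPM, and 1 of these was at least 2-fold higher in members (beside 4.4% of all genes). The other two, the integrin chains Itgb5 and Itgb1, stood at 304 against 366 CPM and 55.9 against 69.8 CPM. Cd44, a receptor, had no UMI in the members, which allows up to 5.99 CPM, and Itgav and Itgb3, which pair as an osteopontin receptor, stood at 18 against 21.4 CPM and 45.9 against 44.6 CPM. Fam20c, the Golgi kinase that phosphorylates osteopontin and other secreted proteins, was the higher gene and reached 50 CPM in the members alone, at 59.9 CPM (40.4 to 85.5) against 11.8 (9.79 to 14), a log2 ratio of 2.25, in 20 members.

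A few members were dividing. Top2a or Mki67 was seen in 4 members (5.71%, 1.58 to 14%) and 25 comparison cells (1.17%, 0.757 to 1.72%). Top2a, which untangles DNA in division, summed to 36 UMIs in 4 members, and Ube2c, a ubiquitin-conjugating enzyme of mitosis, to 31 UMIs in 5, of which 1 cell held 17. Of 25 measured cell cycle genes 8 reached 50 CPM, and 5 of these were at least 2-fold higher (beside 4.4% of all genes). Top2a (71.9 against 5.6 CPM) and Ube2c (61.9 against 5.03 CPM) reached 50 CPM in the members alone, so they could not be counted as lower. The median log2 ratio of the 8 was 1.40, and 0.17 once cells with a Top2a or Mki67 UMI were left out of both groups. One of these 5 was Cdkn1a, an inhibitor of the cell cycle, at 399 against 128 CPM in 39 members. Hmgb2 stood at 334 against 147 CPM in all members and at 145 CPM (112 to 184) in the 66 members without a Top2a or Mki67 UMI, so that its difference rested on the other 4 cells. In the same 66 members Ube2c stood at 4.31 CPM and Cdkn1a at 298 CPM. Without the dividing cells 124 genes were at least 2-fold higher, 117 of them shared with the 129.

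Of 11 interferon response genes Cxcl10, carried by 1 cell, was the only one at least 2-fold higher (9.09%, beside 4.4% of all genes). Ifit3 was seen in 11.4% (5.07 to 21.3%) of members and 8.78% (7.61 to 10.1%) of comparison cells. Of 26 immediate early and heat shock genes 3 (11.5%) were at least 2-fold higher. The most abundant were Atf3, a stress-induced transcription factor, at 1899 CPM (1780 to 2024) against 770, and Rgs1, a regulator of G protein signalling, at 1476 against 624 CPM. In the 155 cells with 5 or more Spp1 UMIs and no Lpl, Atf3 stood at 1745 CPM (1664 to 1828) and Rgs1 at 1236 CPM. Of 24 transcription factors 4 (16.7%) were at least 2-fold higher, among them Bhlhe40 at 81.9 against 17.7 CPM and Id2 at 803 against 320 CPM. Bhlhe40 reached 50 CPM in the members alone, and Sall1 was lower. Of 5 genes tied to Zeb2 loss in microglia none passed 2-fold, where 4.4% of all genes were higher and 2.39% lower. Siglecf stood at 425 CPM (370 to 487) in members, 406 (394 to 418) in comparison cells and 28.6 in WT comparison cells.

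**Figure D3:**
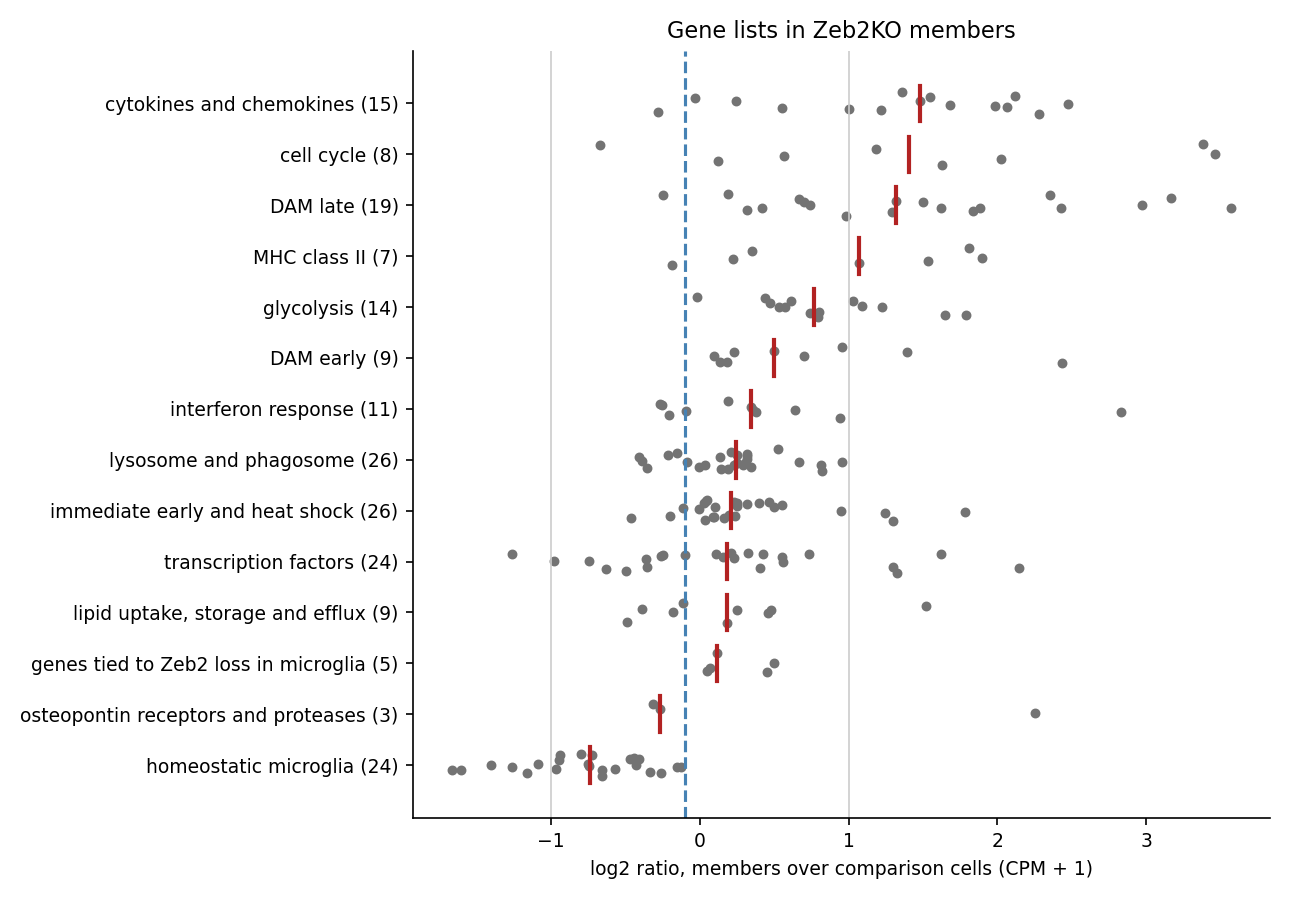
Log2 ratio of members over comparison cells in the Zeb2KO brain for each gene of a list that reached 50 CPM (grey points, number of genes in brackets), with the list median in red. The dashed line is the median of all 2929 genes at -0.10, and grey lines mark 2-fold. The cytokine list (median 1.48) and the late DAM list (1.32) lie to the right and the homeostatic list (-0.74) to the left.

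The levels of several of these genes differed between cells grouped by Spp1 and Lpl. Apoe stood at 1408 CPM in cells without either gene, 2284 with 1 to 4 Spp1 UMIs alone, 3554 (3407 to 3706) with Lpl alone, 3480 (3299 to 3669) with Lpl and 1 to 4 Spp1 UMIs, 6158 (6007 to 6313) with 5 or more Spp1 UMIs alone and 7611 in members. P2ry12 was lower along the same classes, at 3685, 3284, 3082, 2270, 1838 (1756 to 1924) and 1390 CPM. Axl stood at 24.3 CPM (13.6 to 40.1) in cells with Lpl and no Spp1, within the intervals of the cells with 1 to 4 Spp1 UMIs alone (24.1 CPM), at 93.3 CPM (65.7 to 129) in cells with Lpl and 1 to 4 Spp1 UMIs, and at 104 CPM (84.7 to 125) in cells with 5 or more Spp1 UMIs and no Lpl, which overlaps the interval of the members. Cst7 did not differ beyond counting error between members (473 CPM, 415 to 538) and the 155 cells with Spp1 alone (522 CPM, 478 to 568), nor between cells with Lpl alone (123 CPM, 97 to 154) and cells with neither (132 CPM).

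Csf1 was higher with Lpl than without it among cells with Spp1. It stood at 493 CPM (434 to 559) in members and 199 (173 to 229) in cells with 5 or more Spp1 UMIs and no Lpl, and at 219 (176 to 271) against 112 (102 to 123) in cells with 1 to 4 Spp1 UMIs. Cells with Lpl and no Spp1 held 97.2 CPM (74.2 to 125), beside 95.7 (89.8 to 102) in cells with neither. Against the 155 cells with Spp1 alone, 32 genes were at least 2-fold higher in members and 13 at least 2-fold lower, of 2755 that reached 50 CPM, far fewer than against cells with neither gene. Of these, 21 and 4 also belonged to the 129 and the 70. Within the members, the 37 cells with 20 or more Spp1 UMIs held 149 CPM of Plaur, 589 of Csf1 and 1201 of P2ry12, beside 31, 376 and 1620 CPM in the 33 cells with 5 to 19.

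Some of these genes also differed between WT cells with and without Lpl. In the 436 WT cells with Lpl and no Spp1, Apoe stood at 3746 CPM (3664 to 3830) against 1730 (1704 to 1756) in WT cells with neither, Csf1 at 50.5 (41.3 to 61.1) against 17.8, Cd63 at 800 against 500, and P2ry12 at 3602 against 4602 CPM. Axl and Cst7 stood at 14.8 and 20.5 CPM, beside 6.12 and 9.32. H2-Aa did not follow, at 21 CPM (15.2 to 28.1) against 29.9 (26.6 to 33.5). The level of Cd63 was 543 CPM in Zeb2KO members, 68.2 in Zeb2KO comparison cells and 500.2 in WT comparison cells.

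**Figure D4:**
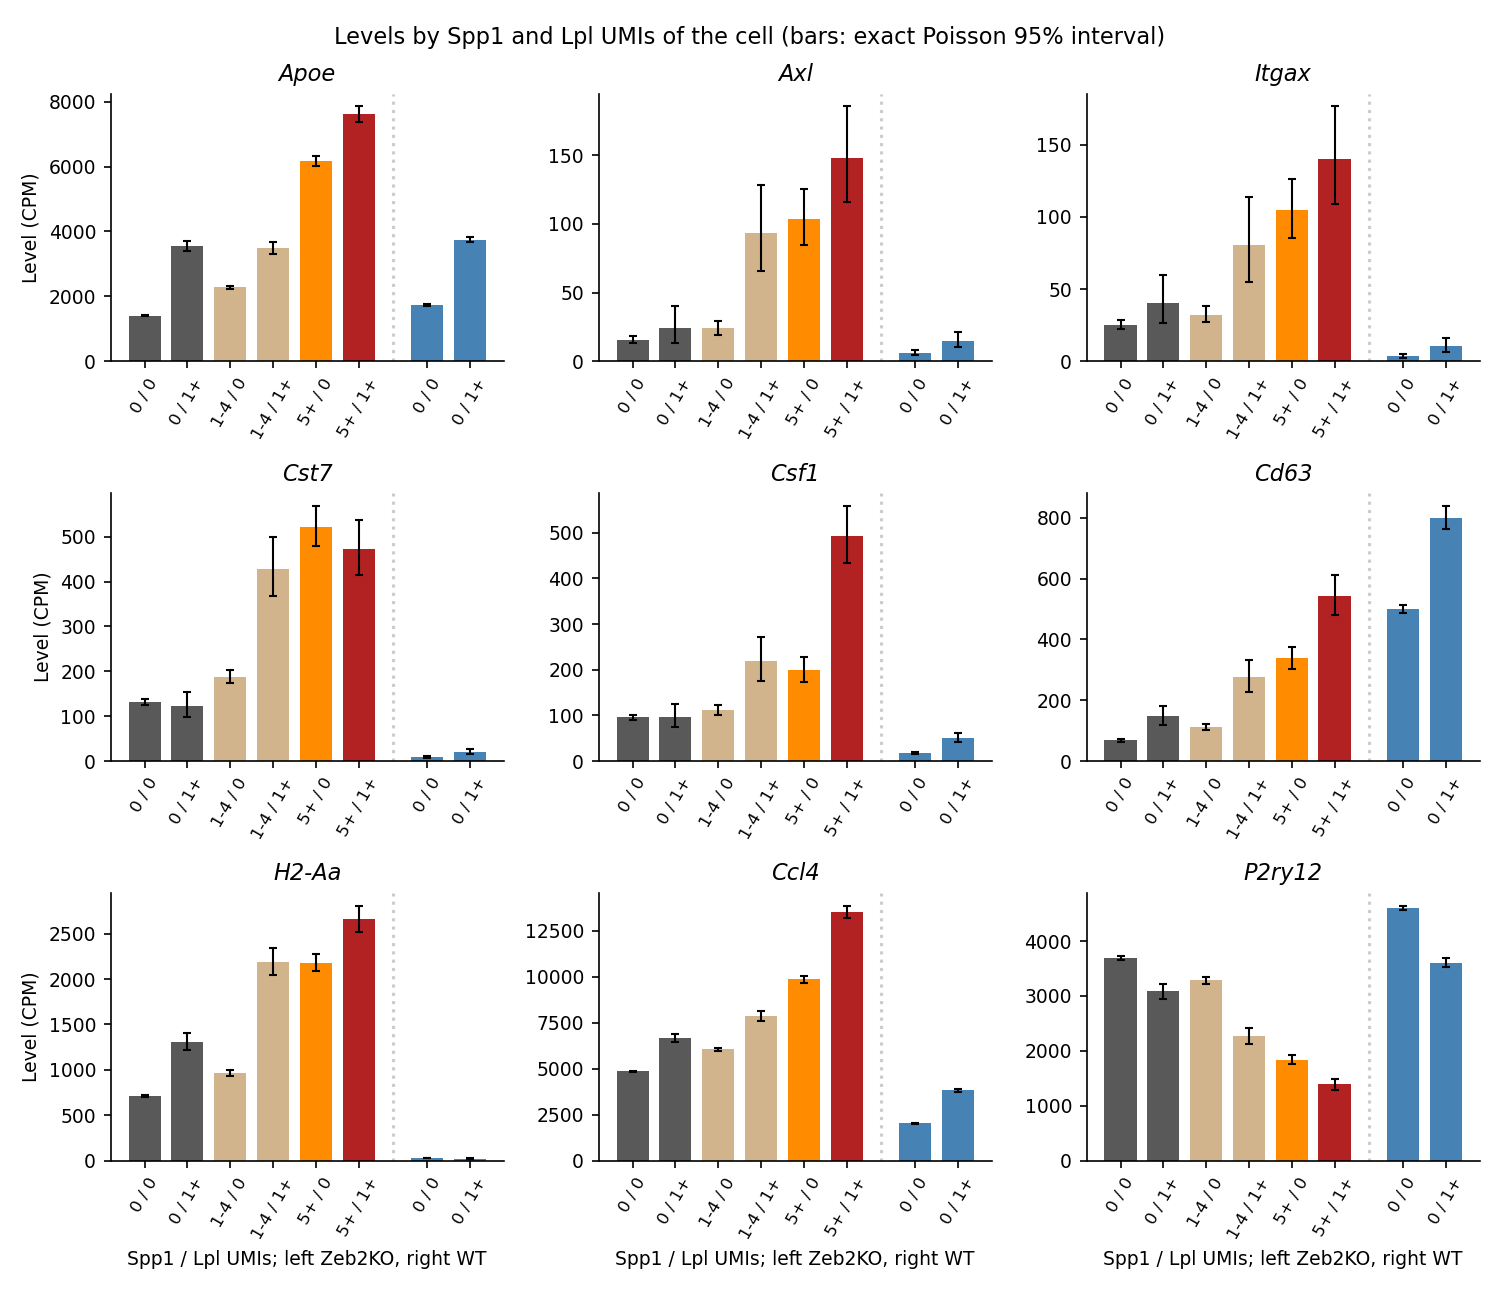
Level (CPM, linear axis from 0) of 9 genes in cells grouped by Spp1 and Lpl UMIs, with the 6 Zeb2KO classes left and 2 WT classes right of the dotted line; bars are exact Poisson 95% intervals. Apoe goes from 1408 CPM in Zeb2KO cells without both genes to 7611 in members, P2ry12 from 3685 to 1390, and Csf1 reaches 493 only in the members.

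The 2 WT members differed from each other. The first held 7018 UMIs with 10 of Spp1 and 2 of Lpl, and 75 UMIs of Cxcl10, 18 of P2ry12, 3 of Apoe and none of Axl or Itgax. The second held 8246 UMIs with 38 of Spp1 and 27 of Lpl, and 680 UMIs of Apoe, 80 of Il1b, 26 of the metalloprotease Mmp12, 8 of Plaur, 8 of Il1rn, 5 of Csf1, 3 each of Axl and Itgax and 1 of P2ry12. The second cell had 4 UMIs of Tmem119, 14 of Cx3cr1 and no UMI of Mrc1 or Pf4. In the 70 Zeb2KO members, by comparison, P2ry12 was seen in all and Mmp12 summed to 1 UMI. With 15264 UMIs in all, the 2 cells give no profile of WT members, and no count of genes past 2-fold was made for WT.

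Clusters built without Spp1, Lpl and the DAM lists still brought many members together. In the Zeb2KO library 28 of 70 members (40%) lay in a cluster of 138 cells, in which they were 20.3% (13.9 to 28%) of the cells, and whose level of P2ry12 was 1513 CPM. This cluster was led by Gpnmb, Gm13889, Plaur, Rab7b and Fabp5, and 56 of its cells held 5 or more Spp1 UMIs. A cluster of 31 cells led by Top2a and Prc1 held 4 members (12.9%, 3.63 to 29.8%). The other members were spread, with 15 of 712, 14 of 1131, 6 of 979 and 3 of 165 cells in 4 clusters, the last led by Ifit1, and 0 of 87 in the remaining one, which by the limit of 3 counts allows up to 3.45%. Both WT members lay in a WT cluster of 77 cells led by H2-Aa, H2-Eb1 and Lgals3, where Lpl was seen in 51.9% of cells and Spp1 in 13%. The clusters were not given cell type names beyond microglia, since P2ry12 was at 1513 CPM or more in all clusters of the Zeb2KO library.

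**Figure D5:**
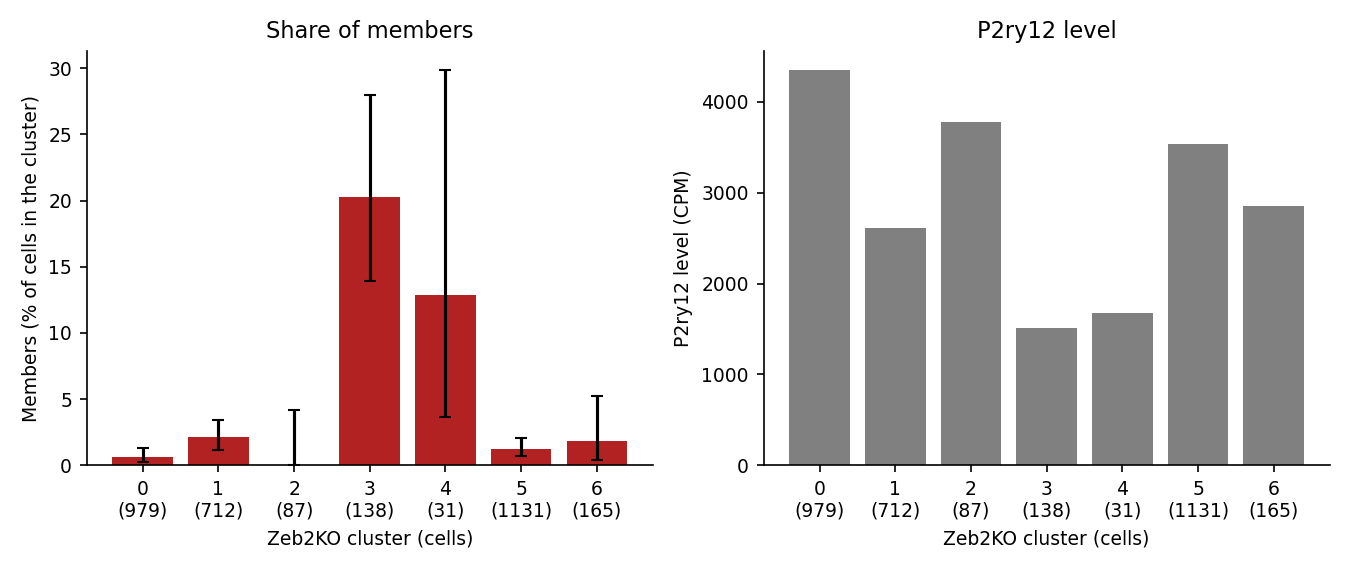
Members as a percentage of the cells of each Zeb2KO cluster (left; bars are exact 95% binomial intervals) and level of P2ry12 in the same clusters in CPM (right), with the number of cells in brackets. Cluster 3 holds 20.3% members and cluster 4 12.9%, and these clusters have the lowest P2ry12 levels, 1513 and 1681 CPM.

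The same UMI rule was also applied to the macs of the other tissues. The labels give Fcgr1-crexZeb2fl/fl for each Zeb2KO library, whereas the study's methods name Clec4f-cre for the liver and Itgax-cre for the lung, so that the CRE line of these libraries is uncertain here. In the lung 13.8% (13 to 14.6%) of 6993 WT cells and 7.35% (6.71 to 8.02%) of 6276 Zeb2KO cells met it, with Lpl seen in 99.5 and 98% of the cells. In the colon 0.306% (0.167 to 0.512%) of WT and 0.538% (0.338 to 0.814%) of Zeb2KO cells did. In the liver 1 of 4328 WT and 2 of 4446 Zeb2KO cells met the rule, as did 0 of 3683 liver cells of Nr1h3fl/fl mice, which by the limit of 3 counts allows up to 0.0815%. In the spleen 0 of 4143 and 0 of 3536 cells did, which allows up to 0.0724 and 0.0848%. Depth differs between these libraries, and the shares are given side by side without a comparison.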

How the data were processed

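Sorted macs of 11 libraries were profiled with the 10x Genomics 3′ assay. The authors deposited a table of raw UMI counts per gene and cell for each library, per the labels made with Cell Ranger on mm10. These counts (27998 genes) were used as deposited, with 13030711 UMIs in WT and 17730180 in Zeb2KO brain (medians 4096 and 4855 per cell). Cells within 3 median absolute deviations in log UMIs, log genes and, upwards, mitochondrial percent were kept per library. The members and the gene lists were chosen with earlier results of these data known. UMIs were summed over cells as CPM with exact Poisson intervals, shares have exact binomial (Clopper-Pearson) intervals, and ratios are log2 of CPM plus 1, the bounds combining both Poisson intervals. The intervals cover counting error only, not the spread between cells or mice. Genes were considered from 50 CPM in the higher group. Named genes were the rule genes, the given markers, the 12 highest and 6 lowest ratios, of each list the 2 most abundant past 2-fold or else the most abundant one, P2ry12, Tmem119, Cx3cr1 and Zeb2; others in the text were added after their values were seen, and 1 of the 6 lowest is not reported here. The planned WT gene counts, the overlap of both genotypes and WT named genes were not made, since WT had 2 members; promoter letters were therefore searched in the Zeb2KO genes alone. Clusters used scanpy 1.11.5 (2000 variable genes, 30 components, 15 neighbours, Leiden resolution 0.5) on each library. Doublets were not removed; Scrublet scores served in an alternative, and edgeR 4.0.16 gave TMM factors in another. The code was tested on simulated data.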

Additional observations from a re-analysis of the deposited data

How the results depend on the processing

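The WT share of 0.0707% stayed within its interval in all 6 alternatives. The Zeb2KO share of 2.16% became 1.42% with at least 2 Lpl UMIs, 0.524% on thinned cells and, in an alternative added after seeing the data, 0.833% on thinned cells with at least 2 Spp1 UMIs, since these leave fewer cells that pass. The counts of genes at least 2-fold higher and lower in Zeb2KO members (129 and 70) became 256 and 225 with a minimum of 20 CPM, 46 and 10 with 200 CPM, and 717 and 703 on thinned cells, where only 17 members remain. In alternatives added after seeing the data they became 85 and 133 when each gene lost its top member cell, with the 50 CPM minimum applied again. Against cells with Spp1 alone, also added after seeing the data, they were 32 and 13. Against comparison cells of member depth they were 111 and 56, of which 103 and 46 were shared with the 129 and the 70. Of 38 named genes past 2-fold, 29 kept a ratio past 2-fold in all 14 alternatives other than the comparison with cells with Spp1 alone. Cd74, Cxcl10, Eno1, Flt1, Hmgb2, Rnpepl1, Top2a, Tpi1 and Ube2c did not. The minimums of 20 and 200 CPM leave the ratio of a gene as it was, so they could not lower this count. TMM factors and totals without Spp1 and Lpl shift all ratios nearly alike. On thinned cells Flt1, Ube2c, Top2a and Cxcl10 had no UMI among the 25500 of the 17 members, where 3 UMIs allow 118 CPM. Their log2 ratios of -3.04, -3.04, -2.00 and -5.91 thus come from the added 1 CPM and show no change of direction. In all, 7 of 43 named genes had no UMI there. Mrap2 and Slc46a1, counted among the 29, were at 0 too, beside 115 and 59.7 CPM in thinned comparison cells. Their log2 ratios of -6.86 and -5.92 there likewise come from the added 1 CPM, so this alternative does not test them. Of the 29, Gpr65, Crybb1 and Slc2a5 rested on 1 UMI in the thinned members and Itgax on 2, where 1 UMI is 39.2 CPM. For these genes too it is a weak check. Also at 0 there were 3 of the 8 genes behind the cell cycle median of -0.82. Against cells with Spp1 alone the log2 ratio was -0.14 for Cst7 and -0.12 for Cdkn1a. Among other named genes, Itgax (140 against 105 CPM), H2-Aa (2660 against 2181) and Tmem119 (901 against 1234) did not pass 2-fold there. Plaur (95.9 against 35.5 CPM) and Tnfrsf11b (93.9 against 26.6) did. Without the 5% of cells with the highest Scrublet scores 67 of 70 members were left. No paired analysis was possible because each genotype is 1 library. The WT gene counts could not be made from 2 members. The 70 members limit the depth: a gene at 50 CPM rests on 25 UMIs.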
